A study of Drosophila melanogaster with 41 samples.

Results

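The fourth chromosome of Drosophila melanogaster is the smallest of its autosomes, and the genes counted on it are described here in embryos and heads that lack, or carry altered forms of, the neuronal RNA-binding proteins ELAV and FNE. Members were all genes that the deposited exon tables place on chromosome 4 and whose counts summed to at least 100 over the 41 libraries. This gave 103 of the 110 genes on the chromosome, and the whole tables held 17027 genes or merged genes. The rule used only the chromosome and the summed counts, but it was set with earlier results of these data known. The members nearest the minimum were CR44028 with 159 counts and lncRNA:CR43437 with 196, and just outside it were mir-954 with 89, JYalpha with 79 and lncRNA:CR45123 with 70. By annotation 78 members code for protein, 19 are noncoding RNAs and 6 are pseudogenes. The tables merge Tdg with lncRNA:CR43958, which count as 1 member.

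ELAV is a nuclear RNA-binding protein that marks neurons and directs the use of neuronal exons and distal 3′ ends, and FNE is its paralogue, which is mostly cytoplasmic. When ELAV is missing, inclusion of a mini-exon in fne transcripts makes a nuclear form, nFNE, that can take over part of ELAV's work on RNA. The fourth chromosome is largely packaged in chromatin that resembles heterochromatin, bound by HP1a and by the chromosome-specific protein POF, yet most of its genes are transcribed. It carries a mix of developmental transcription factors, synaptic and calcium-signalling genes, guidance receptors and housekeeping genes.

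Libraries came from males in 11 groups, of which 8 held 4 libraries each and 3 held 3 each. Whole embryos aged 14–16 h after egg laying (late embryos, 15 per library) were wild type (w1118), delta-elav (Δelav, a deletion that removes ELAV), elavmin (a frameshift that disrupts the last RNA-recognition motif and leaves a truncated protein at very low level) and Δelav,fnenFNE, in which excised introns leave fne able to make only nFNE. Adult heads, 12 per library and taken 72 h after eclosion, were wild type, elavmin and Δelav,fnenFNE. Whole embryos aged 7–8 h (early embryos, 15 per library) all carried an nFNE-coding change: fnenFNE alone was the control, beside elavmin,fnenFNE, Δelav,fnenFNE and elavnFNE, in which the elav locus codes for nFNE. By the study's design, elavnFNE flies carry an fne gene without the mini-exon, so they also differ from the control at fne. Mutants were raised over fluorescent balancers and picked for the absence of fluorescence, and each mutant line was built separately from the control strain, so that allele and strain background cannot be told apart. Reads were 150 bases long in late embryos and heads and 100 bases long in early embryos.

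Counts per library ranged from 17668742 to 51377771. A 2007-base bin of elav held 33.1–45.2% of the elav counts in every library whose elav gene was not deleted or replaced, 10.1–21.3% in the Δelav groups and 11.6–12.9% in elavnFNE, which follows the labels. The elav total is no such check, since transcripts from the locus were still counted in Δelav (549–629 CPM in late embryos against 168–185 in wild type). In late Δelav,fnenFNE, replicates 3 and 4, and in Δelav,fnenFNE heads, replicate 2 had counts shifted toward the 3′ ends of genes on other chromosomes, by 0.28, 0.26 and 0.51 on a log2 scale. Values without them are given where they moved a result, and the tests of stage differences used all libraries. Neuron markers (6 genes) summed to 1844–2077 CPM in wild-type late embryos. Photoreceptor markers (4 genes) summed to 49552–51643 CPM in wild-type heads, 28494–29605 in elavmin heads and 185–223 in Δelav,fnenFNE heads, so the last group had nearly none of the signal that defines photoreceptors in a head sample.

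Levels are in CPM, the counts of a gene scaled to the total of its library, and fold changes are log2 values from edgeR on TMM-scaled counts, each with its standard error (±) and an adjusted p over all genes tested, with a threshold of 0.05. In whole embryos and heads, fewer cells of a type and less RNA per cell cannot be told apart. The sequencing counts did not separate strands: Mpv17 and its antisense asRNA:CR44031, for instance, differed by at most 7.78% in any library. Of the members, 37 share exon bases with another gene and 7 share at least 50% of them, and values for those pairs describe both genes.

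Compared with genes elsewhere that met the same count minimum (n = 12984), the members were long. Their median span was 7.54 kb against 2.28 kb, their median exon length 3.64 kb against 1.80 kb, and they had a median of 8 exon bins against 4. Their median level over all libraries was 85 CPM against 20.0 CPM, a comparison of counts that were not divided by length. At least 1 CPM on average was found for 92 members in wild-type late embryos, 94 in wild-type heads and 84 in early control embryos.

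Per kilobase of exon, the highest members were housekeeping genes at every age. RpS3A, a ribosomal protein of the small subunit, had 1420 CPM per kb in wild-type late embryos, 601 in wild-type heads and 2093 in early controls. ATPsynbeta, a subunit of the mitochondrial ATP synthase, had 681, 609 and 347. Below these stood bt, ND-49 and CaMKII in late embryos (199, 174 and 152 CPM per kb), apolpp, ND-49 and CaMKI in heads (210, 209 and 173), and apolpp, Crk and eIF4G1 in early controls (228, 148 and 143). ND-49 belongs to respiratory complex I, CaMKII and CaMKI are calcium/calmodulin-dependent kinases, apolpp codes for the fly's main lipoprotein, Crk is a signalling adaptor and eIF4G1 a translation initiation factor. Of these 3 groups, wild-type heads had the highest level per kb for 53 members, early controls for 33 and wild-type late embryos for 17.

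The change in level between wild-type late embryos and wild-type heads touched most members. Of 102 tested, 54 were higher in heads and 35 lower, where 40.9% of all genes were called higher and 44.2% lower, and the members' median log2 fold change was 0.27 against -0.05 over all genes. Scaling by library totals in place of TMM shifted all genes by 0.21 and gave 64 higher and 29 lower. Genes of synapse and excitability were mostly higher in heads (9 of 13 higher and 3 lower, median 1.12), and so were transcription factors and chromatin genes (13 of 18 higher and 5 lower, median 0.45). The mRNA fate genes gave 1 higher and 4 lower of 6. Sampled age, tissue and body parts differ together here and cannot be told apart.

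Among the genes higher in heads, Ekar, an eye-enriched kainate-type glutamate receptor subunit, had a log2 change of 4.31 ± 0.08. The Pax6 genes ey and toy had log2 changes of 2.18 and 1.77, and unc-13, which primes synaptic vesicles for release, had 1.91. The noncoding asRNA:CR44027 had 1, 0, 0 and 0 counts in wild-type late embryos and 49, 61 and 47 in wild-type heads. It shares 37.6% of its exon bases with dati, so these counts can come from either gene. Going the other way, bt, which codes for the giant muscle protein projectin, had 5190, 6716, 5453 and 4908 CPM in wild-type late embryos and 693, 906 and 854 in heads, with no overlap (log2 change -2.97). CG33978 (-3.76), CG1674 (-2.02), Gat (-1.45), ci (-1.44) and RpS3A (-1.45) were also lower in heads. Gat is the glial transporter that clears GABA, and ci is the transcription factor of the Hedgehog pathway.

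Between early and late embryos only Δelav,fnenFNE was sampled at both ages, with reads of different length, so age and read length cannot be told apart. Of 95 members tested, 52 were higher late and 30 lower, where 48.2% of all genes were called higher and 41.9% lower, with a median of 0.80 against 0.16 over all genes. On library totals all genes shifted by -0.39 and the split was 51 higher and 39 lower. Without the 2 shifted late libraries it was 51 and 32, with a median of 0.70. Synapse and excitability genes gave 11 higher and 0 lower of 13 (median 1.44), while mRNA fate genes gave 0 higher and 5 lower of 6. The muscle gene bt was 8.98 ± 0.53 higher on the log2 scale, CG1674 8.00, CG33978 7.49, Gat 7.31 and NfI, a transcription factor, 7.08. Lower late were ci (-1.93), pho (-1.39), the DNA-binding Polycomb-group protein, and Hcf (-1.08), a chromatin cofactor. The 8 listed chromatin genes on other chromosomes were all lower late, with a median of -1.87. They are Pof, egg, wde, Su(var)205 (HP1a), Su(var)3-7, HP1b, HP1c and the merged gene of Su(var)3-9 and eIF2gamma.

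As a share of all counts, the members together took 2.20–2.44% in wild-type late embryos, 2.22–2.61% in Δelav, 2.22–2.36% in elavmin and 2.23–2.54% in Δelav,fnenFNE. In early embryos the share lay between 1.66% and 2.0% in every library. Heads of Δelav,fnenFNE had 2.58–3.09%, above the 2.17–2.33% of wild-type and the 2.28–2.41% of elavmin heads. On library totals, genes in general were also higher in these heads. The median log2 change from wild-type heads was 0.19 over all genes and 0.28 over the members. Without the most counted members, bt, apolpp and RpS3A, the share was 2.01–2.42% in Δelav,fnenFNE heads and 1.74–1.96% in wild-type heads, so those libraries still did not overlap. In the same group the spread between replicates was wide, with a median coefficient of variation of 16.4% for members against 9.39% for other genes, while wild-type heads had 7.27% and 7.21%. Replicate 2 of that group is the library shifted to 3′ ends, with a share of 3.09%, and the other libraries of the group had 2.71% and 2.58%, still above every wild-type and elavmin head library.

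Between genotypes, the share of members called lay above the share of all genes in some comparisons and below it in others. Members have higher counts than other genes, and this was not adjusted for. In Δelav late embryos 6 of 96 members were higher and 13 lower than in wild type, where 11% and 11.7% of all genes were called higher and lower (members 6.25% and 13.5%). In elavmin late embryos 11 of 96 were higher and 25 lower, where 15.2% and 14.4% of all genes were called, so that 26.0% of members were lower. In Δelav,fnenFNE late embryos 11 of 96 were higher and 6 lower than in wild type (background 12.8% and 12.8%), and 5 were higher and 0 lower than in Δelav (background 2.85% and 1.94%). Heads of elavmin had 9 of 98 members higher and 15 lower (background 10.2% and 10%), and heads of Δelav,fnenFNE 16 of 101 higher and 8 lower (background 14.4% and 13.8%). In early embryos the counts against the fnenFNE control were 2 higher and 2 lower of 89 in Δelav,fnenFNE (background 1.29% and 1.67%), 13 and 0 of 90 in elavmin,fnenFNE (background 3.83% and 2.57%), and 4 and 1 of 89 in elavnFNE (background 4.37% and 5.35%).

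Medians over the members stayed close to 0. They were 0.01 in Δelav late embryos (0.01 over all genes), -0.05 in elavmin late embryos (0.00), 0.06 in Δelav,fnenFNE late embryos (0.00), -0.06 in elavmin heads (0.01), 0.10 in Δelav,fnenFNE heads (0.01), and 0.07, 0.13 and 0.06 in early Δelav,fnenFNE, elavmin,fnenFNE and elavnFNE (-0.02, 0.00 and -0.01). Scaling by library totals, an alternative chosen after the data were seen, changed the split of higher and lower members to 3 and 18 in Δelav late embryos, 13 and 9 in elavmin heads, 29 and 7 in Δelav,fnenFNE heads (where all genes shifted by 0.17), 1 and 2 in early Δelav,fnenFNE and 3 and 0 in elavnFNE. On that scale the members' medians were -0.03, 0.03, 0.28, 0.06 and 0.06 in these comparisons, in the same order. Those over all genes were -0.03, 0.10, 0.19, -0.03 and -0.01. Shares of all genes called on that scale are not given. Comparisons of 1 stage share their control libraries, so their counts are given side by side and are not independent. The listed chromatin genes on other chromosomes were rarely called between genotypes: Su(var)205 was higher and Su(var)3-7 lower in Δelav,fnenFNE late embryos, and the merged gene of Su(var)3-9 and eIF2gamma was higher in both head mutants, with none of 8 called in the other comparisons with a control.

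**Figure D1:**
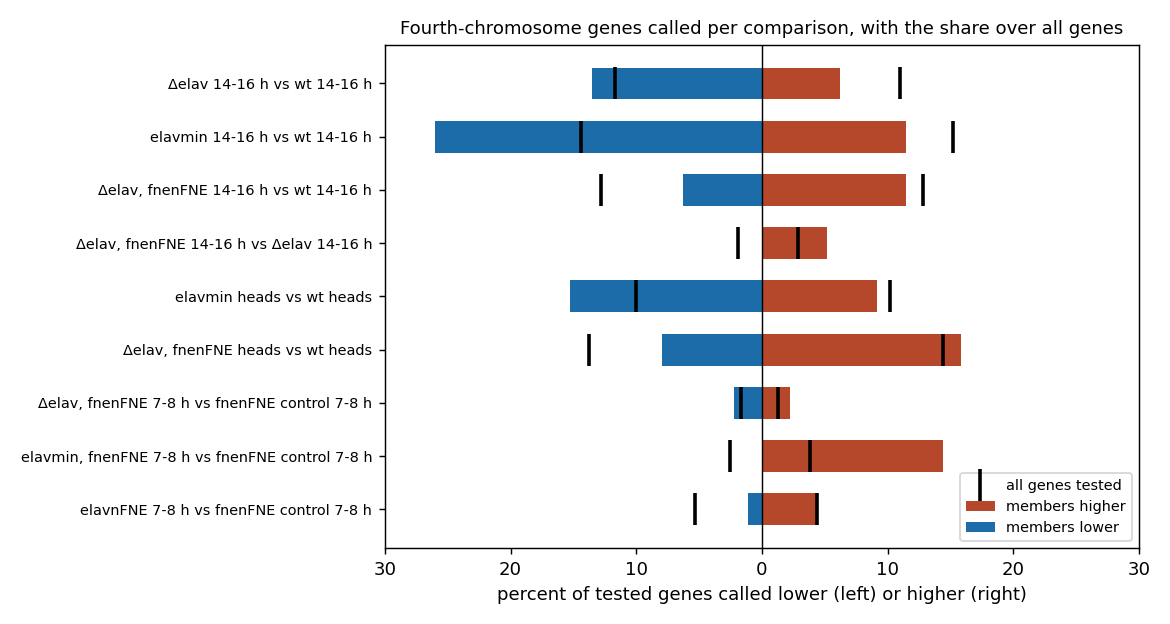
Percent of genes called higher or lower (edgeR, adjusted p under 0.05) among the members and among all genes tested, for each comparison. Members of elavmin late embryos stood at 26.0% lower beside 14.4% of all genes, and those of early elavmin,fnenFNE at 14.4% higher beside 3.83%.

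In late embryos without ELAV, the role with the most calls was that of synapse and excitability. Of its 13 genes, 5 were lower in Δelav (Syt7, Cadps, CaMKII, mGluR and dpr7) and 1, CaMKI, was higher, with a median of -0.20 against 0.01 over all genes. In elavmin 5 were lower and 1 was higher, with a median of -0.11. Guidance, adhesion and signalling genes gave 0 calls of 12 in Δelav and 1 higher and 4 lower in elavmin. Over all genes, 11% were called higher and 11.7% lower in Δelav, and 15.2% higher and 14.4% lower in elavmin. Beside this, 4 of 6 neuron markers on other chromosomes (nSyb, Syt1, cac and para) were lower in Δelav, with sums of 1457–1780 CPM against 1844–2077 in wild type, and 3 of 6 in elavmin (1644–1914 CPM). Markers of neurogenesis (6 genes) summed to 154–162 CPM in wild type and 177–191 in Δelav, where 3 of 5 tested (ase, wor and the merged gene sktl+insc) were higher, and to 157–175 in elavmin, where 0 of 5 were called. Their part in the changes of the members was not tested.

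Syt7, a synaptotagmin that senses calcium in vesicle traffic (chr4:278685-306481, minus strand), had 68.8, 63.2, 58.7 and 57.1 CPM in wild type, 25.1, 29.4, 25.3 and 21.5 in Δelav, and 41.1, 45.6, 33.7 and 40.5 in elavmin. Every mutant library lay below every wild-type library, and Δelav lay below elavmin. The log2 changes from wild type were -1.26 ± 0.09 (adjusted p = 1.7e-06) in Δelav and -0.63 ± 0.09 (6.3e-04) in elavmin. The gene dpr7 codes for a cell-surface protein of the immunoglobulin superfamily. It had 54.1, 48.6, 47.7 and 45.6 CPM in wild type and 32.8, 34.0, 32.0 and 31.8 in Δelav, which did not overlap (-0.55 ± 0.06, 2.7e-05). The metabotropic glutamate receptor mGluR had 56.2, 46.2, 45.7 and 48.9 CPM in wild type, 37.4, 43.1, 38.2 and 36.0 in Δelav, and 29.9, 38.9, 27.7 and 34.4 in elavmin. It was thus lower in both, by -0.31 ± 0.08 (9.7e-03) and -0.59 ± 0.11 (3.1e-03). Cadps, which primes dense-core vesicles, was called lower in Δelav at -0.20 ± 0.06, with an adjusted p of up to 0.080 when a library was left out.

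CG1909 and CG32017, 2 further coding genes, moved with them. CG1909 had 34.6, 31.1, 28.4 and 32.1 CPM in wild type, 12.4, 14.9, 15.2 and 12.6 in Δelav, and 20.4, 28.1, 20.9 and 24.7 in elavmin. That put all Δelav libraries at less than any elavmin library, with log2 changes from wild type of -1.16 ± 0.08 (9.9e-07) and -0.43 ± 0.10 (9.5e-03). CG32017 had 43.6, 35.8, 35.1 and 32.7 CPM in wild type and 16.1, 22.7, 18.8 and 16.7 in Δelav (-0.95 ± 0.12, 2.5e-04). In elavmin, at 25.8, 33.8, 24.7 and 28.4 CPM, it overlapped wild type and its call was lost without some libraries (adjusted p up to 0.073). The antisense transcript asRNA:CR45198 had 102, 89, 67 and 78 counts in wild type and 24, 15, 32 and 20 in Δelav (-1.58 ± 0.22, 2.2e-04), and -1.18 ± 0.22 (1.9e-03) in elavmin. It shares 34.3% of its exon bases with CG33978, which was lower in elavmin only among these 2 comparisons (550, 582, 533 and 484 CPM in wild type against 404, 388, 428 and 388, -0.42 ± 0.05, 1.6e-04).

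Transcription factors gave few calls in the late embryo, where 11% of all genes were called higher and 11.7% lower in Δelav. In Δelav 1 of 18 was higher, zfh2, a factor with zinc fingers and homeodomains (chr4:501810-540874, plus strand), and 1 was lower, Sox102F, a Sox-family factor. Wild-type embryos had 248, 242, 232 and 227 CPM of zfh2 and Δelav embryos 288, 332, 278 and 298, without overlap (0.37 ± 0.06, 6.9e-04). In elavmin, 261, 266, 249 and 263 CPM gave 0.13, a call that was lost without some libraries. Of the 18 factors, 2 were higher in elavmin, toy and zfh2, and 2 lower, Sox102F and pho. Over all genes, 15.2% were called higher and 14.4% lower there. Sox102F had 26.8, 23.1, 24.1 and 25.9 CPM in wild type and 19.3, 20.0, 19.4 and 19.4 in elavmin (-0.36 ± 0.06, 9.3e-04). In elavmin, pho was lower as well (-0.27), as were the guidance genes Ephrin, Eph, PlexA and PlexB, which form ligand, receptor and the semaphorin receptors, by -0.24 to -0.13. Actbeta, a TGF-β family ligand, was higher in elavmin by 0.22.

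Noncoding transcripts were among the larger increases. For lncRNA:CR44024 the late embryos had 8.60, 8.67, 7.8 and 7.93 CPM in wild type, 12.5, 13.8, 14.3 and 14.24 in Δelav, and 12.2, 11.4, 9.72 and 9.30 in elavmin, all above wild type (Δelav 0.77 ± 0.08, 2.1e-05). Counts of lncRNA:CR45200 were low, at 37, 25, 25 and 34 in wild type and 49, 82, 72 and 54 in elavmin (1.27 ± 0.18, 3.7e-04). In Δelav its 42, 51, 36 and 30 counts overlapped wild type and the call was lost without some libraries (adjusted p up to 0.12). No role is stated for these transcripts. Of the 19 calls in Δelav, 10 were kept whichever library was left out, and of the 36 in elavmin, 25 were.

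**Figure D2:**
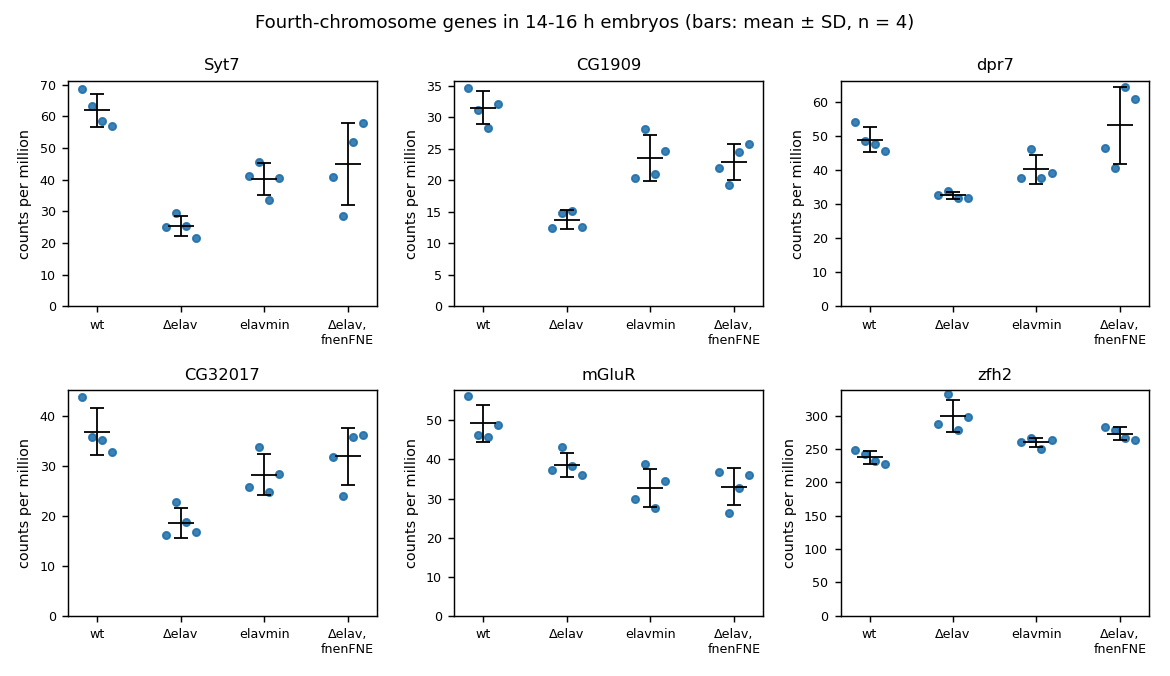
CPM of chosen members in each late-embryo library of the 4 genotypes, with points for libraries, a short line for the group mean and bars for its SD. In Δelav, Syt7 and CG1909 lay at 21.5–29.4 and 12.4–15.2 CPM, below every wild-type library, and zfh2 at 278–332 CPM, above every wild-type library.

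When nFNE alone remained, several of these genes stood nearer to wild type than in Δelav, though the size rests on libraries that stand apart. Compared with Δelav, late Δelav,fnenFNE embryos had higher CG32017 (0.76 ± 0.14, adjusted p = 1.3e-02), CG1909 (0.72 ± 0.10, 1.8e-03), dpr7 (0.69 ± 0.12, 9.8e-03), CG32006 (0.66 ± 0.16, 3.2e-02) and Cadps (0.34 ± 0.08, 3.7e-02). By library, dpr7 had 46.5, 40.8, 64.5 and 61.1 CPM and CG1909 22.0, 19.2, 24.5 and 25.8, all above every Δelav library. Replicates 3 and 4 are the pair with counts shifted to 3′ ends, and they had the highest values of both genes. Without that pair, a choice made after the data were seen, CG1909 (0.59) and dpr7 (0.43) kept their calls. CG32017 (0.59), CG32006 (0.36) and Cadps (0.21) lost them, and the 5 higher and 0 lower members became 2 higher and 2 lower. Leaving out replicate 2, which is not shifted, gave 10 higher and 0 lower. Shares over all genes under these settings are not given.

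Compared with wild type, late Δelav,fnenFNE embryos had 11 members higher and 6 lower, and this balance turned with the same libraries: 6 were higher and 11 lower without replicates 3 and 4, with a median of -0.05 in place of 0.06, and 25 were higher and 6 lower without replicate 2. How all genes moved under these settings is not given, so the turn is not shown to be particular to the members. The genes that kept their calls without the shifted pair included 3 transcription factors. For dati, a zinc-finger factor, the libraries had 47.2, 51.1, 47.8 and 48.7 CPM against 41.1, 41.5, 40.1 and 39.3 in wild type (0.29 ± 0.05, 1.8e-03), and for onecut, which codes for a factor with a cut domain and a homeodomain, 127, 123, 127 and 128 against 111, 103, 100 and 106 (0.28 ± 0.05, 1.3e-03). Together with toy and zfh2 (0.22), 4 of 18 transcription factors were higher and 0 lower, beside 12.8% of all genes higher and 12.8% lower. Without the pair, toy lost its call. The glutamate receptor mGluR remained lower (36.7, 26.4, 32.8 and 36.0 CPM, -0.56 ± 0.10, 2.8e-03), as did CG1909 (-0.45 ± 0.09, 3.4e-03) and asRNA:CR45198 (-1.26 ± 0.19, 6.6e-04). Syt7, at 40.9, 28.6, 51.9 and 58.0 CPM, was not called (-0.45, adjusted p = 0.14), but was lower without the shifted pair (-0.79, 0.015). Neuron markers summed to 1560–1724 CPM, with 4 of 6 lower, and neurogenesis markers to 165–186 CPM, with 3 of 5 tested higher. Their part in these values was not tested.

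In adult heads Ekar (chr4:636131-646556, minus strand) fell in both mutants. Wild-type heads had 83.0, 87.4 and 91.7 CPM, elavmin heads 21.5, 25.2 and 22.0, and Δelav,fnenFNE heads 6.33, 9.45 and 4.34. The ranges did not overlap between any of the groups, and the changes from wild type were -2.02 ± 0.08 (adjusted p = 5.1e-07) and -3.88 ± 0.25 (6.6e-05). All 4 photoreceptor markers were lower in both mutants, with sums of 49552–51643 CPM in wild type, 28494–29605 in elavmin and 185–223 in Δelav,fnenFNE, and their part in the Ekar values was not tested. The pseudogene CR44028 (chr4:637333-637787, plus strand) lies within the span of Ekar on the other strand without touching its exons. It had 26, 20 and 21 counts in wild type, 2, 2 and 2 in elavmin and 6, 7 and 1 in Δelav,fnenFNE, too few for a fold change to be given.

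Gat and mGluR, a transporter and a receptor for transmitters, moved the other way. Gat (chr4:629691-635350, plus strand) had 137, 116 and 117 CPM in wild-type heads, 252, 272 and 299 in elavmin heads and 205, 285 and 204 in Δelav,fnenFNE heads, all mutants above all controls (1.07 ± 0.09, 4.2e-05, and 0.73 ± 0.13, 4.2e-03). Glia markers (4 genes) summed to 647–687 CPM in wild type, 793–834 in elavmin, where moody and alrm were called higher, and 780–924 in Δelav,fnenFNE, where 0 of 4 were called. Their part in the Gat values was not tested. For mGluR the levels were 110, 136 and 124 CPM in wild type, 87.2, 117 and 97.3 in elavmin, and 217, 253 and 199 in Δelav,fnenFNE, and only the last differed from wild type by the test (0.68 ± 0.11, 1.7e-03). In elavmin heads dpr7 was lower (136, 156 and 130 CPM against 90.0, 94.0 and 83.4, -0.75 ± 0.08, 2.3e-04), and in Δelav,fnenFNE heads its 102, 181 and 115 CPM overlapped wild type. Of the 13 synapse and excitability genes, 1 was higher and 4 lower in elavmin heads (median -0.21), and 2 were higher and 1 lower in Δelav,fnenFNE heads. Over all genes the shares higher and lower were 10.2% and 10% in elavmin heads, and 14.4% and 13.8% in Δelav,fnenFNE heads.

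Transcription factors were called in both directions in heads, with 2 higher and 2 lower of 18 in elavmin and 4 and 3 in Δelav,fnenFNE, beside the shares over all genes (10.2% and 10% in elavmin, 14.4% and 13.8% in Δelav,fnenFNE). Sox102F had 77.5, 80.5 and 81.9 CPM in wild type, 57.2, 58.3 and 63.1 in elavmin and 58.4, 65.6 and 61.4 in Δelav,fnenFNE, so both mutants lay below (-0.51 ± 0.06, 5.0e-04, and -0.55 ± 0.07, 6.3e-04). The levels of dati were 155, 173 and 159 CPM in wild type, 217, 256 and 249 in elavmin and 244, 239 and 254 in Δelav,fnenFNE, so both lay above (0.48 ± 0.08, 2.7e-03, and 0.42 ± 0.07, 3.0e-03). For onecut, wild-type heads had 305, 352 and 329 CPM and Δelav,fnenFNE heads 282, 250 and 272 (-0.47 ± 0.09, 3.8e-03). In elavmin heads onecut (230, 292 and 249 CPM) had -0.44 ± 0.10 and lost its call without some libraries (adjusted p up to 0.055). Calls of zfh2 in both mutants (0.36 and 0.33) were lost in the same way, with adjusted p up to 0.085 and 0.13.

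The lipoprotein gene apolpp was called higher in Δelav,fnenFNE heads, as 1 of the 8 tested genes of metabolism, transport and lipid carriage. It had 2837, 1981 and 2605 CPM in wild type and 4717, 4747 and 3550.5 in the mutant (0.63 ± 0.16, 1.8e-02, up to 0.060 when a library was left out). For bt, the muscle gene among the members, the values were 693, 906 and 854 CPM in wild type and 1348, 1062 and 1219 in the mutant, which did not overlap. It was called higher just under the threshold (0.39 ± 0.13, adjusted p = 0.050, up to 0.15). Beside this, the muscle markers summed to 6621–8254 CPM in wild-type and 12003–12393 in Δelav,fnenFNE heads, with 5 of 6 higher and TpnC4 lower. Fat body markers summed to 58.1–257 and 127–555 CPM with 0 called. Their part in these values was not tested. Next to bt, the noncoding lncRNA:CR45200 (chr4:776475-777146, minus strand) had 11, 6 and 9 counts in wild-type heads, 4, 3 and 5 in elavmin and 134, 104 and 71 in Δelav,fnenFNE (3.18 ± 0.27, 3.9e-05). It abuts the annotated end of bt on the other strand, and strands were not separated, so its reads and reads past the end of bt cannot be told apart.

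CG33978 (0.54 ± 0.09) and CG1674 (0.66 ± 0.11) were higher in Δelav,fnenFNE heads as well, and lncRNA:CR44024 was higher in both mutants (0.45 and 0.75). Transcripts lower in elavmin heads included lncRNA:CR44023, with 81, 83 and 85 counts in wild type against 29, 42 and 38 (-1.06 ± 0.20), and Syt7 (-0.32). Without replicate 2 of Δelav,fnenFNE heads, the library shifted to 3′ ends, the 16 higher and 8 lower members became 15 higher and 17 lower, and the median moved from 0.10 to -0.02. How all genes moved without this library is not given, so the change is not shown to be particular to the members. Ekar, Gat, mGluR, Sox102F, dati, onecut and lncRNA:CR45200 kept their calls without it. Genes called lower only without it included these of the synapse and excitability list: dpr7 (-0.54, adjusted p = 0.0018), Syt7 (-0.29, 0.010), CG11155 (-0.34, 0.013), PIP4K (-0.54, 0.00050), a lipid kinase, and Cadps (-0.29, 0.033). The gene bt, called higher with all libraries too, then had 0.49 (0.014). Of the 24 calls in each mutant, 10 in elavmin and 14 in Δelav,fnenFNE were kept whichever library was left out.

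**Figure D3:**
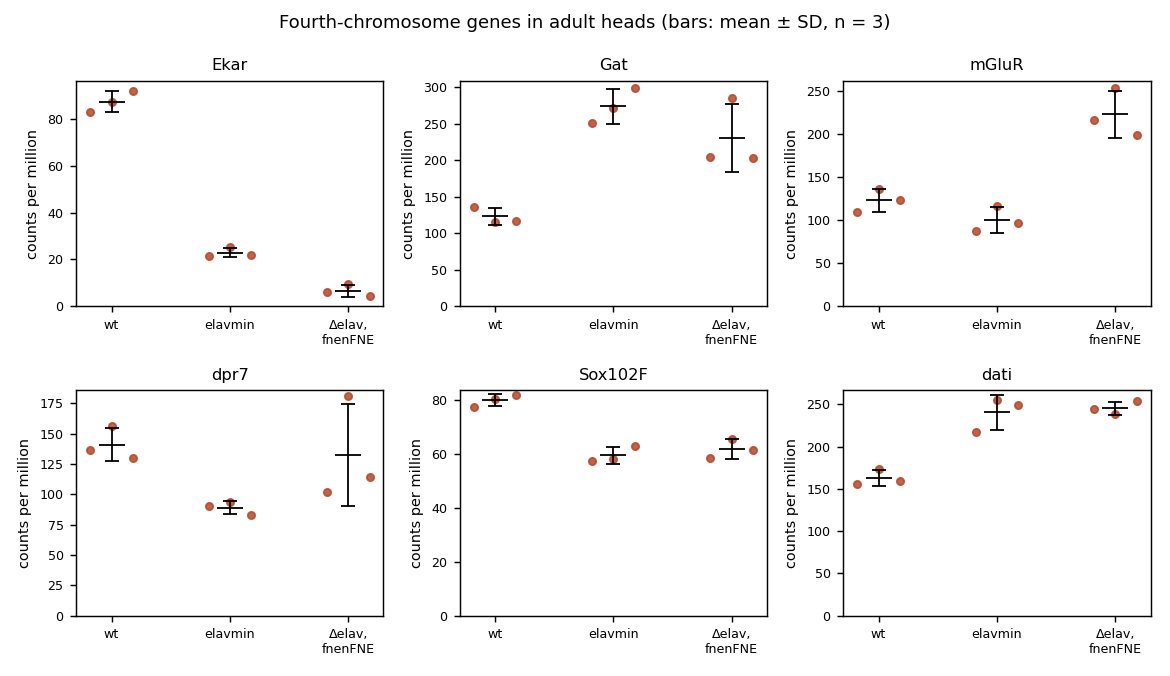
CPM of chosen members in each adult-head library of the 3 genotypes, with points for libraries, a short line for the group mean and bars for its SD. Ekar ran from 83.0–91.7 CPM in wild type to 4.34–9.45 in Δelav,fnenFNE, while Gat and dati lay above wild type in both mutants.

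At 7–8 h, when the first neurons are forming, members changed little except in elavmin,fnenFNE, where 13 were higher and 0 lower than in the fnenFNE control, and 8 of the 13 calls were kept whichever library was left out. Actbeta (chr4:1077331-1084796, minus strand) had 3.27, 4.93, 4.88 and 4.08 CPM in the control and 14.4, 10.2, 8.80 and 8.93 in elavmin,fnenFNE (1.29 ± 0.19, adjusted p = 2.7e-03). Control libraries had 167, 150, 155 and 142 CPM of unc-13 and elavmin,fnenFNE libraries 313, 261, 232 and 284 (0.81 ± 0.09, 5.9e-04). For both genes no mutant library overlapped the control. The Ski-family gene fuss was higher too, with 4.79, 5.18, 5.77 and 4.95 against 7.55, 11.9, 9.10 and 8.24 CPM (0.81 ± 0.15, 8.7e-03).

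Several of the 13 are genes whose counts overlap: asRNA:CR44029 (0.59 ± 0.09), asRNA:CR43425 (0.69) and CR43361 (0.52) share 13.1%, 100% and 92.5% of their exon bases with unc-13, and asRNA:CR44030 (0.88 ± 0.14) shares 39.7% with fuss. How much of these changes comes from the shared bases was not tested. Other called members, Gat (0.91), CG11155 (0.93), a predicted glutamate receptor subunit, and the kinesin gene Kif3C (1.09), had few counts and lost their calls without some libraries (adjusted p up to 0.11, 0.068 and 0.090). Synapse and excitability genes accounted for 3 of the 13, with 0 lower, and transcription factors for 1. Over all genes, 3.83% were called higher and 2.57% lower. Markers of neurogenesis (6 genes) summed to 562–598 CPM in the control, 610–654 in elavmin,fnenFNE, 680–739 in Δelav,fnenFNE and 645–701 in elavnFNE, with 2, 2 and 3 of 6 called higher. Neuron markers (6 genes) were scarce, at 6.78–12.1 CPM in the control, 7.70–18.3 in elavmin,fnenFNE, 6.56–7.82 in Δelav,fnenFNE and 7.97–11.1 in elavnFNE, with 0 called. The part of either set in the members' values was not tested.

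In elavnFNE, unc-13 was higher again (180, 210, 201 and 243 CPM, 0.44 ± 0.08, 4.5e-03), and in early Δelav,fnenFNE, at 177, 172, 214 and 205 CPM, it reached 0.33 ± 0.08 (adjusted p = 0.049, up to 0.12 when a library was left out). The comparisons share the control libraries, so these are not independent. Early Δelav,fnenFNE embryos had less dpr7, with 4.12, 3.66, 4.50 and 4.94 CPM against 8.70, 6.90, 7.90 and 6.90 in the control (-0.81 ± 0.14, 9.8e-03), and this was the only 1 of its 4 calls kept whichever library was left out. The others were unc-13, CG33521 (0.56, adjusted p up to 0.084) and Pur-alpha (-0.45, up to 0.097), a gene for a protein that binds purine-rich nucleic acid. For apolpp, elavnFNE libraries had 1202, 1937, 1416 and 1911 CPM and the control 2724, 2609, 3237 and 2154 (-0.73 ± 0.18, adjusted p = 0.047, up to 0.12).

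Whether the changes from wild type differed between heads and late embryos was tested directly, as the difference of the log2 changes. For elavmin, 14 of 102 members differed (5 with a higher and 9 with a lower change in heads), where 17.6% of all genes did, and for Δelav,fnenFNE 17 of 103 (10 and 7), where 22.9% did. Ekar differed most reliably, by -2.48 ± 0.16 in elavmin (adjusted p = 5.6e-08) and -4.10 ± 0.29 in Δelav,fnenFNE (1.3e-07). Gat differed by 1.16 ± 0.12 in elavmin, where it was higher in heads and not called in late embryos. In Δelav,fnenFNE the differences were 1.24 ± 0.16 (5.8e-05) for mGluR, lower late and higher in heads, 2.43 ± 0.31 (4.5e-05) for lncRNA:CR45200, and -0.75 ± 0.09 (4.0e-05) for onecut, higher late and lower in heads. These comparisons set whole embryos beside heads, so that tissue, age and stage cannot be told apart.

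Exon usage was measured per exon bin, a stretch of exon bounded by the splice sites and ends in the annotation, as the percent of the gene's counts in that bin. Tests of usage compared a bin with the rest of its gene (edgeR, threshold 0.01 over all bins). The study lists 5 alternative exons and 5 3′ UTRs of these genes as dependent on ELAV, and since it chose them on these samples their direction here is not independent evidence. Bins were called in Δelav late embryos for 17 of 915 tested (1.51% of all bins were called), in elavmin late embryos for 20 of 923 (1.39%), and in Δelav,fnenFNE late embryos for 4 of 925 against wild type (0.705%) and 2 of 906 against Δelav (0.604%). Without the shifted pair the late Δelav,fnenFNE counts were again 4 and 2, but neither of the 2 bins called against Δelav, in Cadps and zfh2, kept its call (adjusted p = 0.066 and 1.0). In heads they were 10 of 930 for elavmin (0.919%) and 1 of 935 for Δelav,fnenFNE (0.995%), which became 14 without the shifted replicate 2, with 3 up and 11 down. The share of all bins called without that replicate is not given. Early embryos gave 10 of 675 in Δelav,fnenFNE (0.634%), 0 of 695 in elavmin,fnenFNE (0.153%; 26 had an unadjusted p under 0.05) and 3 of 680 in elavnFNE (0.313%).

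The exons on which these results turn are shown at their edges, or whole where they are short, so that each can be found in the genome. All are from the RefSeq genome of build dm6, chromosome 4, 5′ to 3′ on the gene's strand, with exon bases in capitals and intron bases in lower case.
zfh2 exon start, chr4:536951-536980, plus strand: attttatttttttagTGAAAATGCAACGCA
zfh2 exon end, chr4:537061-537090, plus strand: TCTTAAGAACTGAAGgtaaataatacaaat
CaMKI exon start, chr4:449909-449938, plus strand: tcttttcacgtttagGTTCAGTGCAAATCA
CaMKI exon end, chr4:449954-449983, plus strand: TCTAAATGGAACGCGgtgagttcatatccc
Cadps exon start, chr4:1245086-1245115, plus strand: ttttcctaaacaaagAAAATTGATACTGCG
Cadps exon end, chr4:1245210-1245239, plus strand: GTAATAGTTATGGAAgttaaaggtcttaaa
CG1674 exon start, chr4:234849-234878, plus strand: gtgtttgttttttagAAAACCTATGAACCC
CG1674 exon end, chr4:234930-234959, plus strand: TCGCCAATTAAGCCTgtaggtaacaccact
unc-13 whole exon, chr4:885444-885472, minus strand: tggacggcagGTTCTCAAGgtatagactg
PMCA whole exon, chr4:337527-337556, minus strand: aacgaccagATTTCAGTACCGgtaagaatt
The exon of unc-13 is a microexon of 9 bases and that of PMCA of 12 bases, each a whole number of codons. A run of 7 T (TTTTTTT, searched on the gene's strand only) stood within 100 bases upstream of the zfh2 and Cadps exons, within 100 bases downstream of the PMCA exon, and in neither window of the CaMKI and unc-13 exons. Among 599 internal exons of the members, 13.7% had such a run upstream, 10.4% downstream and 22.9% on either side. These matches describe letters and not binding sites.

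In Δelav late embryos all 5 listed exons were called, 2 upward and 3 downward. The 110-base exon of zfh2, annotated in 1 of 3 transcripts, held 0.410, 0.329, 0.448 and 0.440% of the zfh2 counts in wild type, 0.945, 1.12, 0.976 and 1.05% in Δelav, and 0.838, 1.31, 0.840 and 0.891% in elavmin. Both mutants lay above every wild-type library (1.33 ± 0.17, adjusted p = 4.0e-10, and 1.27 ± 0.17, 6.7e-09). The Δelav,fnenFNE embryos had 0.603, 0.486, 0.896 and 0.634%, which was not called against wild type (0.67, adjusted p = 0.27). All of these lay below every Δelav library, a difference that was not called (-0.67 ± 0.19, adjusted p = 0.076) but was called without the shifted pair (0.0085). These shares rest on 28–39 counts per wild-type and 79–112 per Δelav library. The 45-base coding exon of CaMKI, in 3 of 5 transcripts, held 2.77, 2.66, 2.85 and 2.54% in wild type and 3.74, 3.97, 4.08 and 4.36% in Δelav (0.58 ± 0.09, 1.1e-06). In elavmin it held 3.68, 3.31, 3.72 and 3.63%, again above wild type (0.40 ± 0.09, 5.8e-03, up to 0.045 when a library was left out).

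The 3 listed exons that fell in Δelav lie in PMCA, unc-13 and Cadps. The 12-base coding exon of PMCA, the plasma membrane calcium pump, held 0.473, 0.468, 0.491 and 0.486% of its counts in wild type and 0.203, 0.238, 0.152 and 0.205% in Δelav (-1.25 ± 0.14, 3.4e-13). In elavmin it held 0.296, 0.331, 0.299 and 0.402% and in Δelav,fnenFNE 0.319, 0.218, 0.247 and 0.202%, below wild type in every library (-0.53 ± 0.12, 3.3e-03, and -0.96 ± 0.16, 5.0e-06). In elavmin its call was lost without some libraries (adjusted p up to 0.036). For the unc-13 microexon the shares were 0.856, 0.683, 0.785 and 0.767% in wild type and 0.375, 0.437, 0.451 and 0.302% in Δelav (-0.97 ± 0.18, 1.4e-05), while elavmin, at 0.898, 0.638, 0.597 and 0.668%, overlapped wild type and was not called (-0.15). The 124-base coding exon of Cadps, annotated in 5 of 5 transcripts, held 2.73, 2.66, 2.57 and 2.58% in wild type and 1.80, 1.95, 1.90 and 1.84% in Δelav (-0.49 ± 0.10, 1.1e-03, up to 0.011). Of the 5 exons, the Δelav,fnenFNE test called only PMCA. PMCA, unc-13 and zfh2 share 40.5%, 25.2% and 18.7% of their exon bases with genes on the other strand. The gene counts against which their exons are measured can therefore include reads of those genes.

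An exon outside that list, the 81-base coding exon of CG1674, fell in all 3 late mutants. It held 0.943, 0.993, 1.07 and 0.872% in wild type, 0.466, 0.535, 0.561 and 0.578% in Δelav, 0.454, 0.497, 0.380 and 0.630% in elavmin, and 0.502, 0.423, 0.555 and 0.630% in Δelav,fnenFNE. No mutant library reached the wild-type range, and the log2 changes were -0.86 ± 0.11 (4.0e-09), -0.98 ± 0.12 (2.4e-10) and -0.86 ± 0.18 (8.8e-04, up to 0.023). The 3 tests share the wild-type libraries. A 286-base coding bin of dati was lower in Δelav (-0.69 ± 0.11, 1.2e-04). A 494-base first exon of dati, in 1 of 4 transcripts, moved up: it held 7.24, 7.95, 6.87 and 7.28% in wild type, 13.5, 14.4, 14.6 and 15.6% in Δelav and 10.2, 13.2, 11.7 and 9.95% in elavmin (0.99 ± 0.10, 1.1e-12, and 0.63, 2.0e-04). A 2919-base bin of pan, the TCF factor of the Wnt pathway, held 4.56, 5.12, 4.77 and 4.73% in wild type and 2.42, 2.18, 2.36 and 2.49% in Δelav (-1.03 ± 0.15, 1.7e-08), with 4.24, 4.31, 3.86 and 4.73% in elavmin.

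**Figure D4:**
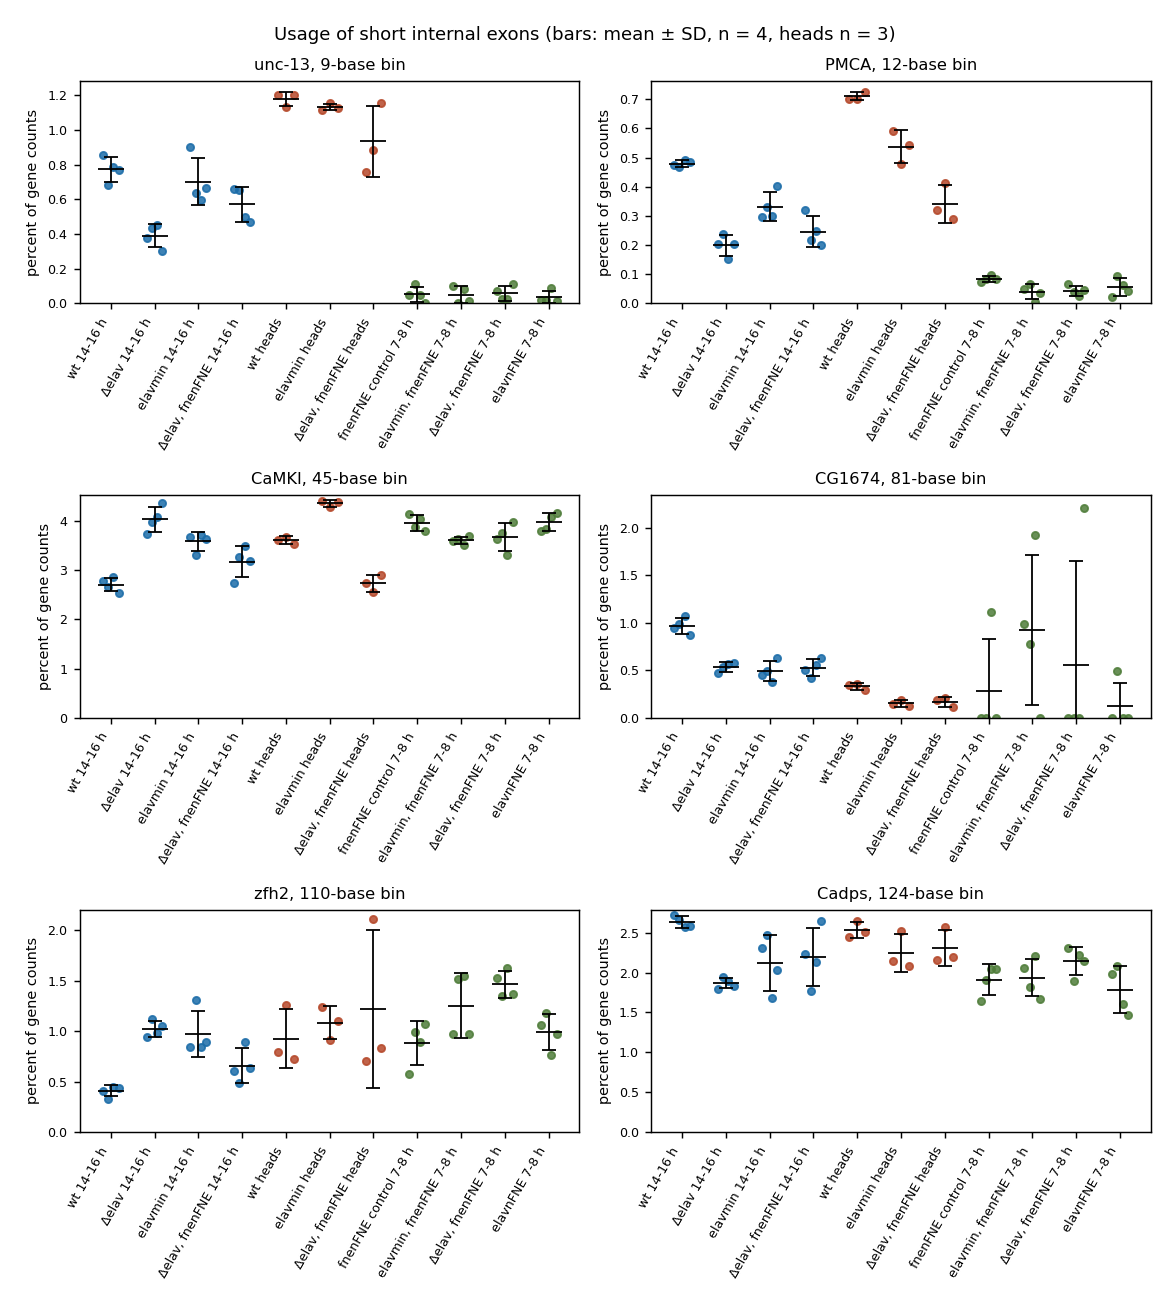
Percent of the gene's counts in each of the 5 listed exons and the CG1674 exon, for every library by group, with points for libraries, a short line for the group mean and bars for its SD. In late embryos the zfh2 exon rose from 0.329–0.448% in wild type to 0.945–1.12% in Δelav, and the PMCA exon went from 0.468–0.491% to 0.152–0.238%.

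None of the 5 listed exons was called in heads in the comparisons of elavmin and of Δelav,fnenFNE. The CaMKI exon held 3.52–3.68% of its gene's counts in wild-type heads, 4.28–4.41% in elavmin and 2.55–2.89% in Δelav,fnenFNE. Neither mutant overlapped wild type, and the changes, 0.27 and -0.42, went in opposite directions. PMCA held 0.702, 0.702 and 0.726% in wild-type heads, 0.590, 0.478 and 0.542% in elavmin and 0.321, 0.412 and 0.289% in Δelav,fnenFNE, groups that did not overlap but were not past the threshold (-0.41, adjusted p = 0.57, and -1.05, adjusted p = 0.14). The CG1674 exon rested on 11–14 counts in wild-type heads, where it held 0.345, 0.354 and 0.291%, and 5–8 counts in elavmin heads, too few for a statement. In early embryos the neuronal microexons were scarcely used in any genotype, with unc-13 at 0–0.112% and PMCA at 0.006–0.099%. The zfh2 exon held 1.34–1.62% in early Δelav,fnenFNE against 0.574–1.07% in the control, without overlap. It was not called (0.79 ± 0.23, adjusted p = 0.089). The CaMKI exon held 3.52–3.69% in elavmin,fnenFNE against 3.80–4.14% in the control, also without overlap and not called (-0.14).

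At the 3′ ends, the listed distal UTR bins of PlexA and CaMKII fell in both Δelav and elavmin late embryos. PlexA codes for a semaphorin receptor, and its 3509-base distal bin, in 1 of 4 transcripts, held 13.4, 9.34, 10.7 and 10.6% in wild type, 8.14, 8.17, 7.45 and 7.64% in Δelav and 7.34, 8.84, 7.00 and 7.94% in elavmin. All mutant libraries lay below the wild-type range (-0.49 ± 0.09, 6.1e-05, and -0.50, 2.9e-04). The 1867-base bin of CaMKII, in 10 of 12 transcripts, held 6.16, 3.73, 3.58 and 3.75% in wild type, 3.0, 3.25, 2.71 and 2.54% in Δelav and 2.14, 3.72, 2.56 and 3.09% in elavmin. Replicate 1 of wild type stood above the other libraries, and elavmin overlapped wild type. The log2 changes of CaMKII were -0.59 ± 0.08 (1.7e-08) and -0.57 ± 0.10 (2.3e-06), and without that library -0.35 (0.0099) and -0.34 (0.019). The elavmin call of PlexA was lost without the same library too (-0.39, 0.022). In early Δelav,fnenFNE embryos the CaMKII bin went the other way, at 2.51, 2.60, 4.68 and 4.03% against 1.76, 2.31, 2.25 and 2.29% in the control (0.71 ± 0.13, 5.5e-05, up to 0.025 when a library was left out). The other listed 3′ UTRs were measured by bins that extend beyond the listed regions, and these bins were not past the threshold in Δelav: gw, a partner of microRNA silencing, had -0.41 (adjusted p = 0.020), Mitf -0.43 (0.19) and apolpp -0.34. In elavmin heads the Mitf bin was called, at 8.02, 9.05 and 6.38% in wild type against 4.75, 4.06 and 2.97% (-1.0 ± 0.16, 4.3e-05, up to 0.026).

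The 499-base 3′ UTR bin of Actbeta, part of its 1 annotated transcript, was called in elavmin late embryos and heads and in neither Δelav nor Δelav,fnenFNE at those ages. It held 5.35, 4.68, 5.11 and 5.71% in wild-type late embryos, 0.954, 1.34, 1.77 and 1.95% in elavmin (-1.79 ± 0.24, 2.5e-07), and 4.88, 4.35, 5.50 and 4.11% in Δelav. In heads it held 6.01, 6.69 and 6.13% in wild type, 3.23, 2.16 and 3.69% in elavmin (-1.05 ± 0.18, 1.9e-04, up to 0.014) and 6.07, 7.8 and 5.59% in Δelav,fnenFNE. In early elavmin,fnenFNE embryos it held 5.83, 6.13, 9.47 and 5.50%, which overlapped the 5.10–6.55% of the control. An alternative pair of 3′ UTR bins of RpS3A was used more in all 3 late mutants, with 0.74 and 0.70 in Δelav, 0.98 and 1.07 in elavmin and 1.37 and 1.45 in Δelav,fnenFNE. Without the shifted pair the Δelav,fnenFNE values were 0.94 and 0.96, so the order of the mutants rests on those libraries. In elavmin late embryos a 2205-base 3′ UTR bin of Cals, which codes for calsyntenin, was up (2.07 ± 0.39). This bin is in 1 of 4 transcripts. A bin of sv (0.74) that overlaps it on the other strand was up as well, so the reads cannot be assigned to either.

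Calls in the remaining comparisons were thin. The 747-base bin of Ank, an ankyrin, was the only 1 called in Δelav,fnenFNE heads, with 2.41, 2.38 and 1.94% in wild type and 4.66, 4.56 and 5.23% in the mutant (1.09 ± 0.21, 4.0e-04, up to 0.11). Of the 10 bins up in early Δelav,fnenFNE embryos, only a bin of gw (0.79 ± 0.11, 4.2e-07, up to 3.2e-04) was kept whichever library was left out, 1 bin was called without replicate 3 of the mutant and 2 without replicate 1 of the control. In elavnFNE a bin of Zyx, which codes for zyxin, was lower (-0.78 ± 0.11, 1.7e-06), beside 2 bins of unc-13 (-1.25 and -0.97) whose calls were lost when some libraries were left out (adjusted p up to 0.14 and 0.11).

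**Figure D5:**
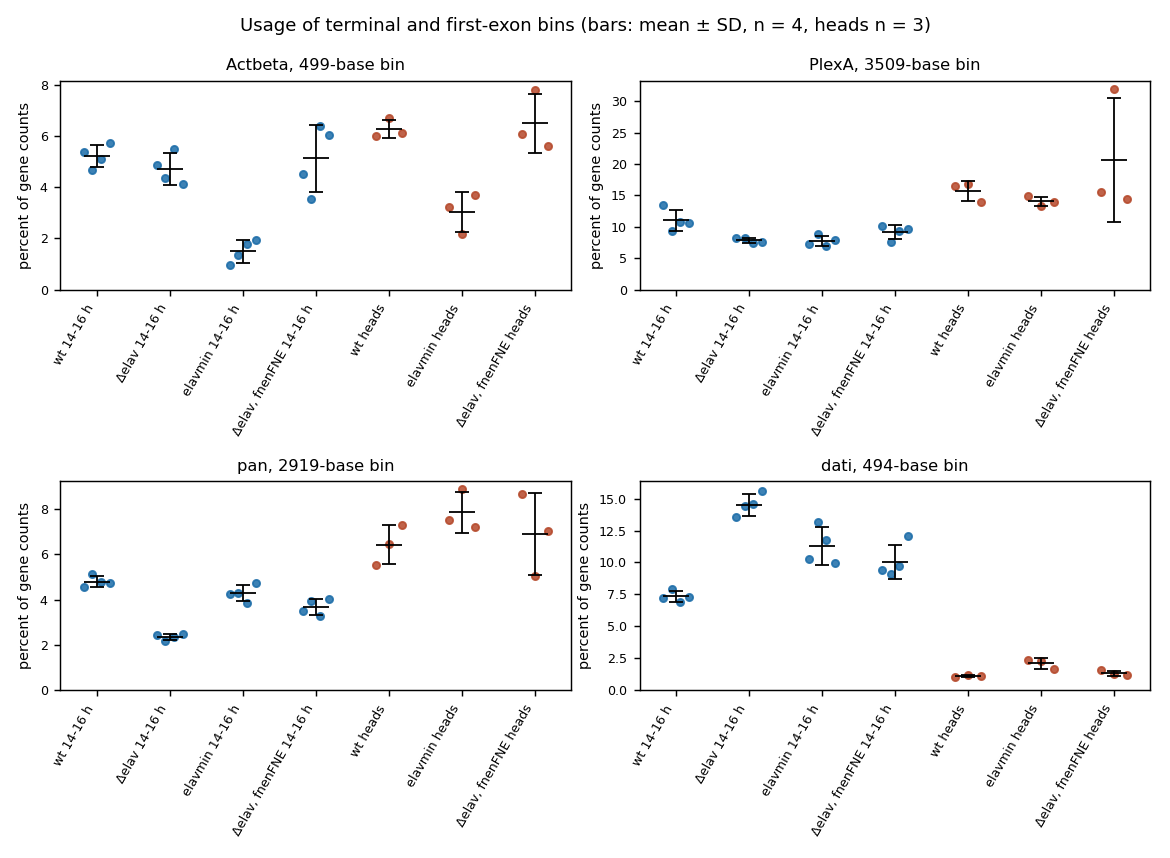
Percent of the gene's counts in terminal and first-exon bins of Actbeta, PlexA, pan and dati, for every library of late embryos and heads, with points for libraries, a short line for the group mean and bars for its SD. The Actbeta bin lay at 0.954–1.95% in elavmin late embryos against 4.68–5.71% in wild type, and the dati first exon at 13.5–15.6% in Δelav against 6.87–7.95%.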

How the data were processed

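mRNA-seq of males was compared in 41 libraries of 11 groups, as the sample labels give them. In 8 tables of comparisons, raw counts per exon bin were deposited by the authors (84619 bins, 1065 in the members), made from reads mapped to dm6, and the submitters' processing notes name STAR, featureCounts and Subread without versions. The tables also hold the authors' own comparisons (log2 fold changes, p-values and normalized signal), which, like their 3′ UTR tables, were not used. Columns repeated between tables (19) held identical counts, 78 lines that continued a previous entry were left out, and bins were summed to genes. The merged gene on the chromosome stayed merged.

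Each comparison was fitted on the whole table under R 4.3.3, with edgeR 4.0.16 built on limma 3.58.1: TMM, edgeR's default filter on low counts, robust quasi-likelihood tests for genes (threshold 0.05), and its exon usage test for bins (threshold 0.01), two-sided, with Benjamini-Hochberg adjustment over all genes or bins tested. DEXSeq was not used here. Alternatives were DESeq2 1.42.0, its size factors, no filter, a replicate block, a joint fit of every group of a stage, each library left out, and, chosen after the data were seen, library totals without TMM and the late embryos without the libraries shifted to 3′ ends. Tables and figures were made with Python 3.11.15, pandas 2.3.3, NumPy 2.4.6 and matplotlib 3.10.9. Tested on simulated counts with 200 genes or bins changed 2-fold, the tests found 99%, 95% and 92% of genes and 87.5%, 61.5% and 79.5% of bins in late embryos, heads and early embryos. They also called 10, 10 and 17 unchanged genes, and 0, 2 and 0 bins of unchanged genes. Only genes and bins above a count minimum were changed, and no 3′ shift was simulated. Recovery for the members with few counts, or in shifted libraries, is therefore not described.

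The members, the gene lists and the markers were chosen with earlier results of these data known. Genes are named by rule: per comparison the 6 called members with the largest change and no overlap of groups, per comparison of bins the 5 called bins with the largest change and a mean count of at least 10, the study's listed exons and 3′ UTRs, the genes of the role lists, and the highest and lowest members. Others, such as those called when a library is left out, were named after their values were seen. Replicates are separate libraries in the labels, so p-values measure the spread between these libraries. Counting error adds to it, since counted reads need not be independent molecules. Counts did not separate strands, and values per kb divide by the length of all exon bins of a gene.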

Additional observations from a re-analysis of the deposited data

Results flagged for a closer look

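In 10 of 122 sets of 4 libraries tested, 1 library stood apart from the others of its group, where chance gives about 1 in 20. In early control embryos these were Pur-alpha, lowest at 15.6 CPM, Kif3C, highest at 1.86 CPM, Gat, lowest at 1.87 CPM, and the first bin of Eph, at 0.546% of its counts in replicate 1. Wild-type late embryos had asRNA:CR44027 in 1 library, at 0.0261 CPM, which is 1 count. Replicate 4 of early Δelav,fnenFNE embryos stood high in bt (31.8 CPM), CG1674 (6.22 CPM) and CG33978 (7.32 CPM), and replicate 3 of that group in a bin of Crk (2.57%). The zfh2 exon stood at 1.31% in replicate 2 of elavmin late embryos. No cause of these values was tested.

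The change from wild type differed between heads and late embryos for 11 named results, each tested as an interaction with edgeR. In elavmin the change in heads minus that in late embryos was 1.16 for Gat, 0.43 for CG1909, -0.45 for dpr7, -2.22 for lncRNA:CR45200, -2.48 for Ekar and -3.01 for CR44028, a fitted value that depends on few counts. In Δelav,fnenFNE it was 2.43 for lncRNA:CR45200, 1.75 for asRNA:CR45198, 1.24 for mGluR, 0.42 for CG1909 and -4.10 for Ekar. The calls of CG1909 and CR44028 in elavmin and of asRNA:CR45198 and CG1909 in Δelav,fnenFNE were lost when some libraries were left out, with adjusted p up to 0.088, 0.056, 0.055 and 0.065. CR44028 also passed the count minimum only with its wild-type head counts, which favours a fall in mutant heads.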

How the results depend on the processing

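For the 91 named results with a call, none of the values under alternatives changed sign, 1050 kept the call and 150 lost it, and genes called only under an alternative are outside this tally. The balance of higher and lower members turned in late Δelav,fnenFNE against wild type (11 and 6 to 6 and 11 without the shifted pair), in Δelav,fnenFNE heads (16 and 8 to 15 and 17 without replicate 2) and in elavmin heads (9 and 15 to 13 and 9 on library totals). Whether the balance over all genes turned as well is not given. With DESeq2, calls of genes were 8 in late Δelav,fnenFNE against Δelav (5 with edgeR), 22 in early elavmin,fnenFNE (13) and 9 in elavnFNE (5). With every group of a stage fitted jointly they were 13 in Δelav,fnenFNE against Δelav (5), 15 in elavmin heads (24) and 2 in early Δelav,fnenFNE (4). Called bins were then 7 in late Δelav,fnenFNE against wild type (4), 7 against Δelav (2), 4 in elavmin heads (10) and 3 in Δelav,fnenFNE heads (1). In the last comparison both DESeq2 size factors and no filter gave 2. Library totals without TMM gave 3 in elavnFNE.

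Replicate numbers are shared between groups by label, and deviations of libraries with the same number correlated between -0.48 and 0.50. In elavmin heads against wild-type heads the correlations were all positive (0.32, 0.32 and 0.03), and every other comparison had both signs. Whether libraries were paired cannot be decided from these values. With the replicate block, genes called were 3 in late Δelav,fnenFNE against Δelav, 39 in elavmin heads, 2 in early Δelav,fnenFNE and 2 in elavnFNE. Bins called with the block were 1 in late Δelav,fnenFNE against Δelav, 3 in Δelav,fnenFNE heads and 1 in elavnFNE. In the other comparisons the block left counts within 1.5 times.

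Leaving out each library gave 13 to 31 genes in late Δelav,fnenFNE against wild type (31 without mutant replicate 2) and 3 to 10 against Δelav (3 without Δelav replicate 1 or 4 or mutant replicate 4, 8 without Δelav replicate 2, 10 without mutant replicate 2). In elavmin heads it gave 12 to 26 (12 without mutant replicate 3, 13 and 15 without wild-type replicates 2 and 3) and in Δelav,fnenFNE heads 14 to 32 (15 and 14 without wild-type replicates 2 and 3). In early embryos it gave 1 to 4 in Δelav,fnenFNE (1 without control replicate 2 or mutant replicate 1, 2 without control replicate 1 or 3 or mutant replicate 3), 8 to 16 in elavmin,fnenFNE (8 without control replicate 1 or 2 or mutant replicate 4) and 3 to 8 in elavnFNE (3 without control replicate 1 or 2 or mutant replicate 2 or 3, 8 without control replicate 3).

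For bins the ranges were 4 to 11 in late Δelav,fnenFNE against wild type, 0 to 11 against Δelav and 0 to 14 in heads, the highest in each without mutant replicate 2. They were 1 to 15 in early Δelav,fnenFNE, 0 to 1 in elavmin,fnenFNE (1 without control replicate 4) and 1 to 2 in elavnFNE. Stage differences in elavmin ranged from 9 to 18 (9 without wild-type late replicate 4 or elavmin head replicate 3). The causes were not tested. At these depths members with few counts, such as CR44028, carry wide counting error.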
